A study of Mus musculus with 14 samples.

Results

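Young red cells and platelets carry RNA but no nucleus. Their transcripts in a bulk tissue library can therefore mark blood cells, or their RNA, held in the tissue at extraction. The 8 genes described here were chosen by symbol: the adult beta globins Hbb-bs and Hbb-bt, the alpha globins Hba-a1 and Hba-a2, Alas2, Pf4, Ppbp and Itga2b. They are 8 of the 23286 genes in the deposited tables, and all 8 were found in both tables. Bulk RNA-seq covered whole kidneys, taken 5 h after a sham operation or after ischemia-reperfusion (IR) injury, in which blood flow to the kidney is stopped and then restored. The mice were 9 weeks old and either Control or VE-PTPiKO, which with both operations gives 4 groups of 3 libraries, 12 in all. VE-PTPiKO names a mouse genotype that targets the endothelial phosphatase VE-PTP, encoded by Ptprb. The labels used here give no strain or sex for these mice, no cell type or promoter that drives the deletion, and no statement that each library is a separate animal. P-values therefore measure the spread between these libraries, which may be technical. The other 2 samples of the series, single-cell samples of 12-month-old C57BL/6 kidneys, were not analysed here.

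Haemoglobin is a tetramer of alpha and beta globin chains, each holding a haem group. In adult mice that carry these copies, the beta chains come from Hbb-bs and Hbb-bt and the alpha chains from Hba-a1 and Hba-a2. The symbols Hbb-b1 and Hbb-b2 share identifiers with the beta globin members here, and the labels do not say which copies these mice carry. Young red cells (reticulocytes) still hold globin mRNA and Alas2 mRNA, which encodes the erythroid form of the first enzyme of haem synthesis, and lose this RNA as they mature. Platelets bud from megakaryocytes and keep part of their RNA. Pf4 (platelet factor 4) and Ppbp (pro-platelet basic protein) encode chemokines stored in platelet granules, and Itga2b encodes the alpha chain of the platelet fibrinogen receptor. After IR, red cells are known to pack the small vessels of the kidney's outer medulla, and platelets can adhere to injured endothelium.

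Each library held between 15427887 and 21296392 reads assigned to genes. Ptprb, the gene the VE-PTPiKO genotype targets, stood at 197 ± 42.4 CPM (counts per 1e6 assigned reads, mean ± SD, n = 3) in sham and 131 ± 24.7 after IR in Control, and at 147 ± 25.9 and 98.5 ± 25.6 in VE-PTPiKO. The ranges of genotypes overlapped in IR (112 to 159 against 75.0 to 126 CPM), while in sham the lowest Control library (168 CPM) lay above the highest VE-PTPiKO library (162 CPM). Markers of kidney tubules and glomeruli (9 of 9 matched) were present and summed to between 15000 and 22400 CPM. Markers of spleen or bone marrow (5 genes) summed to at most 0.482 CPM in any library. The share of the nuclear RNA Malat1 set 3 libraries apart: Control sham replicate 2 (1.02% of reads), VE-PTPiKO sham replicate 2 (1.152%) and VE-PTPiKO IR replicate 3 (1.962%), against 0.327% to 0.564% in the other 9.

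The globin copies are nearly the same in sequence, which bears on how their reads can be assigned. The coding sequences of Hbb-bs and Hbb-bt (444 bases each) differed at 1 base (99.8% identity), and those of Hba-a1 and Hba-a2 (429 bases each) also at 1 base (99.8%). The lines below show the stretch of 90 coding bases that ends at the differing base, from the GENCODE M21 transcripts, 5′ to 3′, with that base in capitals. Positions are counted from 1 at the A of the start codon: C417T from Hbb-bs to Hbb-bt, and C381T from Hba-a1 to Hba-a2.
Hbb-bs: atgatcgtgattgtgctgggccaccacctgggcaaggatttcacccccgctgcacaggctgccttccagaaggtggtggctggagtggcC
Hbb-bt: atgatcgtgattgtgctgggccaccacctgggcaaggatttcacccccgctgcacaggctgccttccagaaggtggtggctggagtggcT
Hba-a1: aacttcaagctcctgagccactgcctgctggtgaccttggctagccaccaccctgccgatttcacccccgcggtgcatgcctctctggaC
Hba-a2: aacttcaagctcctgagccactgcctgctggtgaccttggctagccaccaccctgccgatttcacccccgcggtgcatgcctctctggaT
Of all 50-base words in its annotated transcripts, Hbb-bs shared so many with Hbb-bt that 46.8% were found in no other gene. The share was 41.7% for Hbb-bt, 27.7% for Hba-a1 and 10.7% for Hba-a2. All 50-base words of Pf4, Ppbp and Itga2b were found in no other gene. No source used here states how reads that match both copies were counted. Values of the single globin genes are therefore uncertain against their own copy, and sums over the copies may leave out shared reads. For Alas2, 88.5% of the words were its own, because 372 of its 2403 exonic bases (15.5%) lie over Apex2 and Mir3620 on the opposite strand. No source used here states whether the counting used strand, so reads from that overlap cannot be told apart.

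On mm10, per the deposited tables, Hbb-bs lies at chr7:103826523-103827928 and Hbb-bt at chr7:103812524-103813923, both on the minus strand. Hba-a1 lies at chr11:32283672-32284486 on the plus strand. The tables place Hba-a2 at chr11:32283675-32284493, over Hba-a1, whereas GENCODE M21 places it at chr11:32296489-32297298. Alas2 lies at chrX:150547417-150570622 and Pf4 and Ppbp lie next to each other at chr5:90772435-90773383 and chr5:90768518-90770062, all on the plus strand. Itga2b lies at chr11:102453297-102469883 on the minus strand. The tables give 1 value per gene and library, so they do not separate coding sequence from untranslated parts.

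The globin genes and Alas2 had like profiles across the libraries, as described below, so 120 bases before the RefSeq start of 1 gene of each kind are shown (GRCm38.p6, 5′ to 3′ on the gene's own strand). Capitals mark matches, on either strand, to 3 motifs known from erythroid promoters: AGATAA (bound by GATA factors), CACCC (bound by KLF factors) and CCAAT. Overlapping matches run into each other. GENCODE M21 starts its longest models of Hbb-bs, Hba-a1 and Alas2 inside these windows or before them.
Hbb-bs (chr7:103827929-103828048): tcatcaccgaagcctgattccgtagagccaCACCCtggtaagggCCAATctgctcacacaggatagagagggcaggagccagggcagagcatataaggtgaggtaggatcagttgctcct
Hba-a1 (chr11:32283552-32283671): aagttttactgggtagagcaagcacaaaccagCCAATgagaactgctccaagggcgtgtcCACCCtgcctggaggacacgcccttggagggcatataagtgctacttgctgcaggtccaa
Alas2 (chrX:150547297-150547416): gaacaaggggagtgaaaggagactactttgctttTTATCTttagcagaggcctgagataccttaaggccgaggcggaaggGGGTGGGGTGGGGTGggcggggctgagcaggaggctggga
Pf4 (chr5:90772315-90772434): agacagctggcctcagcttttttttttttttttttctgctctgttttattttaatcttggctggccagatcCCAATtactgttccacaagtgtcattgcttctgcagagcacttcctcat
Over the 250 bases before the start, the Hbb-bs promoter held 1 AGATAA match beginning 210 bases before the start (outside the stretch shown), 1 CACCC match at 90 and 1 CCAAT match at 76 bases. Hba-a1 held 2 CACCC matches, the nearer 60 bases before its start, and 1 CCAAT match at 88 bases. Alas2 held 1 AGATAA match 86 bases before its start and 3 CACCC matches, the nearest at 30 bases, both motifs on the opposite strand there. Pf4 held 2 CCAAT matches and neither of the other motifs. Of the 8 members, 2 had AGATAA, 5 had CACCC and 5 had CCAAT, against 10.0%, 52.0% and 33.8% of all 32851 mouse promoters of this length in the RefSeq table. A match is a description of letters, not a measured site.

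After IR, Control kidneys held about 4 times as much beta globin RNA as sham kidneys. Control sham replicates 1, 2 and 3 held 62.5, 38.4 and 131 CPM of Hbb-bs, and Control IR replicates 231, 420 and 244 CPM. Every IR library lay above every sham library, although sham replicate 3 lay apart from the other sham libraries. The fold change was 4.13 (log2 2.05 ± 0.38 SE, 95% interval 1.22 to 2.88), with an adjusted p of 0.00502. This and the following fits are by limma on log2(value + 1), in which a fold is on the log2(value + 1) scale, adjusted by Benjamini-Hochberg over all genes tested. In VE-PTPiKO, Hbb-bs stood at 99.2, 51.1 and 51.9 CPM in sham and at 323, 402 and 80.1 CPM in IR. IR replicates 1 and 2 were at the level of Control IR, while IR replicate 3 lay inside the range of the sham libraries. The fold was 3.28 (log2 1.72 ± 0.55 SE), and the adjusted p of 0.171 did not pass.

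Hbb-bt, the minor beta globin in these libraries, had a profile like that of Hbb-bs. Control sham libraries held 4.44, 2.85 and 9.13 CPM, and the IR libraries 19.9, 32.9 and 21.6. That is a log2 fold change of 2.27 ± 0.36 SE with an adjusted p of 0.00224. In VE-PTPiKO it stood at 10.1, 3.96 and 4.45 CPM in sham and 27.4, 33.9 and 7.84 CPM in IR (log2 1.72 ± 0.55 SE, adjusted p = 0.167). The same IR replicate 3 lay below the highest sham library.

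Of the alpha globins, Hba-a1 carried nearly all assigned reads. Control sham libraries held 15.4, 14.2 and 30.4 CPM and the IR libraries 55.6, 114 and 68.7, with no overlap between the groups. The log2 fold change was 1.98 ± 0.30 SE with an adjusted p of 0.00183. In VE-PTPiKO it stood at 25.7, 15.7 and 15.5 CPM in sham and 77.2, 92.6 and 27.9 CPM in IR. Those groups did not overlap either, by a narrow gap between IR replicate 3 and sham replicate 1, and the log2 fold change of 1.61 ± 0.42 SE had an adjusted p of 0.0962. Hba-a2 had 0 reads in all 6 sham libraries, 2, 1 and 0 reads in Control IR and 0, 2 and 0 reads in VE-PTPiKO IR. A count of 0 over the 3 Control sham libraries allows up to 0.0557 CPM (3 reads, counting error only), and over the 3 VE-PTPiKO sham libraries 0.0516 CPM. Hba-a2 was below the filter of a mean value of 1 and was not tested, and no fold is given. With so few assigned reads no difference could be detected. The bounds hold for reads assigned to Hba-a2 and not for its RNA, since only 10.7% of its 50-base words were its own.

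Alas2 gave the narrowest interval of the red cell genes. Control sham libraries held 3.33, 3.54 and 4.79 CPM, and the IR libraries 10.5, 19.6 and 13.5. Every IR library was above every sham library, with a fold of 3.55 (log2 1.83 ± 0.24 SE, adjusted p = 0.000712). In VE-PTPiKO it stood at 5.78, 3.69 and 3.46 CPM in sham and 12.1, 16.6 and 7.45 CPM in IR. There too the groups did not overlap, and the fold of 2.61 (log2 1.38 ± 0.33 SE) had an adjusted p of 0.0675. Apex2, the gene that overlaps Alas2 on the other strand, had a log2 fold change of 0.11 ± 0.17 SE in Control (adjusted p = 0.775) and 0.34 ± 0.16 SE in VE-PTPiKO (adjusted p = 0.380).

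The platelet chemokine genes were far scarcer than the globins. Pf4 stood at 0.12, 0.25 and 0.23 CPM in Control sham, which is 2 to 5 reads a library, and at 2.34, 1.15 and 1.82 CPM (23 to 40 reads) in Control IR. No library of the groups overlapped, and the log2 fold change of 2.79 ± 0.41 SE (95% interval 1.88 to 3.71, adjusted p = 0.00142) was above that of any globin gene, with intervals that overlap. That order depends on the pseudocount: with 5 in place of 1 the Pf4 value was 2.05, below that of Hbb-bt. In VE-PTPiKO, Pf4 stood at 0.42, 0.48 and 0.33 CPM in sham (6 to 9 reads) and 1.30, 0.86 and 1.23 CPM in IR (14 to 22 reads). These groups were also apart, with a log2 fold change of 1.29 ± 0.35 SE and an adjusted p of 0.108. Pf4 in IR replicate 3 of VE-PTPiKO (1.23 CPM) was near the other IR libraries, unlike the tested globins of that library.

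Ppbp held 0.31, 0.25 and 0.46 CPM in the Control sham libraries, against 1.46, 1.00 and 1.65 after IR (log2 1.84 ± 0.38 SE, adjusted p = 0.0106). The Control groups did not overlap. In VE-PTPiKO it stood at 0.28, 0.64 and 0.60 CPM in sham and 0.95, 0.55 and 0.58 CPM in IR (log2 0.39 ± 0.44 SE, adjusted p = 0.750). There the libraries were interleaved, with only IR replicate 1 above all sham libraries. The Control call for Ppbp was lost without Control IR replicate 3 (log2 1.72, adjusted p = 0.0514).

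Itga2b differed from both chemokine genes in that it had the highest sham level of the 3, also per kilobase, and passed neither IR comparison. Control sham libraries held 6.05, 6.64 and 4.51 CPM and the IR libraries 7.08, 7.57 and 6.50, ranges that overlap. The log2 fold change was 0.28 ± 0.20 SE with an interval of -0.15 to 0.72 (adjusted p = 0.440). In VE-PTPiKO it stood at 5.87, 6.58 and 4.73 CPM in sham and 6.82, 6.58 and 7.78 CPM in IR. There the log2 fold change was 0.26 ± 0.19 SE (adjusted p = 0.603).

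**Figure D1:**
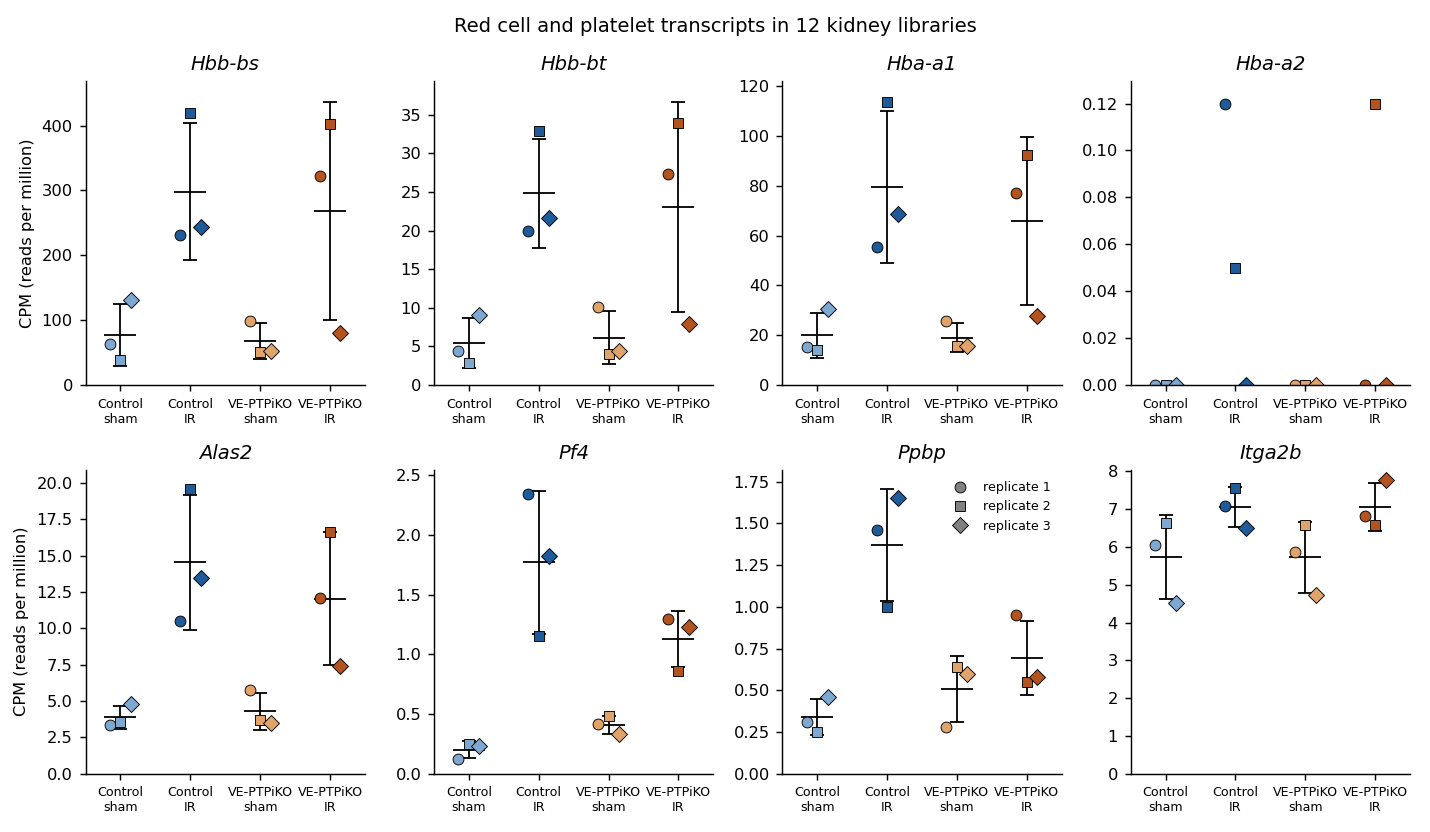
Level of each member (vertical axis, CPM) in the 12 libraries, by group; symbols mark the replicate number, the horizontal bar the mean and the whiskers 1 SD (n = 3), not drawn for Hba-a2, whose highest library has 2 reads. Hbb-bs, Hbb-bt, Hba-a1 and Alas2 of VE-PTPiKO IR replicate 3 (diamonds) lie below the other IR libraries, while its Pf4 does not.

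Corrected for exonic length, the order of the levels was the same in all 4 groups for the red cell genes. In Control IR, Hbb-bs stood at 389 ± 137 CPM per kilobase (SD, n = 3), Hba-a1 at 97.8 ± 37.7, Hbb-bt at 35.3 ± 10.0 and Alas2 at 6.05 ± 1.92. Each step in that order was larger than the spread between replicates. The lengths are full exon unions, while only 46.8% of the 50-base words of Hbb-bs, 27.7% of Hba-a1 and 41.7% of Hbb-bt were their own. The part of shared sequence in the order of the globins was not tested. Of the platelet genes, Pf4 stood at 2.46 ± 0.825, Itga2b at 1.29 ± 0.0983 and Ppbp at 1.27 ± 0.308 CPM per kilobase, and the last 2 did not differ beyond their spread. In Control sham the platelet order was another: Itga2b stood at 1.05 ± 0.202, Ppbp at 0.313 ± 0.103 and Pf4 at 0.278 ± 0.0928 CPM per kilobase. The 4 haemoglobin genes together took between 0.00554% and 0.0171% of the reads of Control sham libraries and between 0.0307% and 0.0566% in Control IR. In VE-PTPiKO the share was 0.00708% to 0.0135% in sham and 0.0116% to 0.0529% in IR.

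Of the 7 members tested in Control, 6 rose after IR and Itga2b did not pass. Over all 16257 genes tested, 7.48% were called higher and 4.02% lower. The same 6 members had every IR library above every sham library, which held for 16.0% of all genes. The median log2 fold change was 1.98 over the 7 members and -0.01 over all genes. The authors' deposited table of this comparison also has 6 of these members at an adjusted p under 0.05 and higher, against 12.5% of its genes. Because these are bulk samples, the cells that hold the RNA were not identified. More blood cells in the tissue, more RNA per blood cell and expression in other cells cannot be told apart.

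In VE-PTPiKO, 0 of 7 members passed, against 1.92% of 16401 genes called higher and 0.793% called lower. At an unadjusted p under 0.05 there were 5 members, all with a higher mean after IR. The share of all genes at that unadjusted p was not counted here, so the 5 cannot be set against it. By DESeq2 on the recovered reads 2 members passed, Hba-a1 and Alas2, among 1013 genes called in either direction. By edgeR 0 members passed. In the deposited values Hba-a1, Alas2, Pf4 and Itga2b (4 of 7) had every IR library above every sham library, as 10.6% of all genes did, although in CPM the nearest Itga2b libraries were equal at 6.58. The median log2 fold change was 1.38 over the members and -0.01 over all genes. The authors' deposited table has 2 of these members, Alas2 and Hba-a1, at an adjusted p under 0.05 and higher, against 6.42% of its genes.

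The VE-PTPiKO count changed when 1 library was left out, and also between methods that kept every library. That library, IR replicate 3, had the lowest Hbb-bs, Hbb-bt, Hba-a1 and Alas2 of its group, so leaving it out raises those means in any case. Without VE-PTPiKO IR replicate 3, the 4 tested red cell genes passed: Hbb-bs (log2 2.46, adjusted p = 0.000793), Hbb-bt (log2 2.40, adjusted p = 0.00405), Hba-a1 (log2 2.17, adjusted p = 0.000599) and Alas2 (log2 1.71, adjusted p = 0.00509). In that fit 5.79% of all genes were called higher. Of the platelet members none passed in limma with or without that library, although with library weights Pf4 did (log2 1.22, adjusted p = 0.0238). Leaving out all 3 libraries highest in Malat1 also left 4 members called, the same 4, against 2.97% of all genes.

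**Figure D2:**
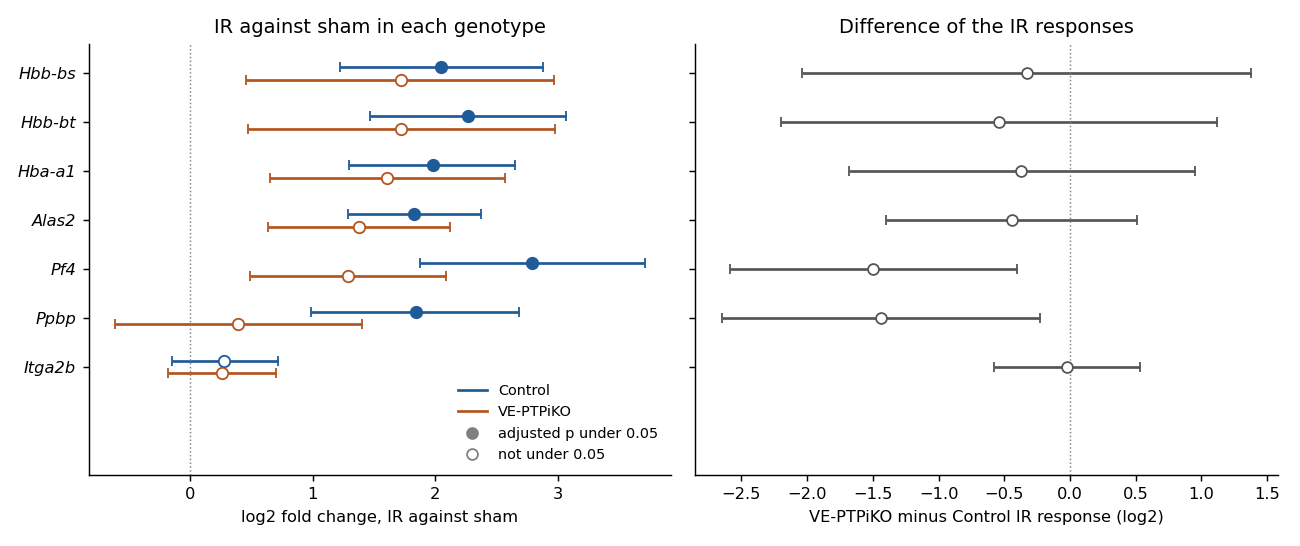
Left, log2 fold change of IR against sham for the 7 tested members in Control (blue) and VE-PTPiKO (orange); filled points passed an adjusted p under 0.05. Right, the VE-PTPiKO response minus the Control response. Bars are 95% intervals; 6 Control points are filled and no VE-PTPiKO point is.

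The difference between the genotypes' responses was tested directly. It was -0.33 ± 0.79 SE for Hbb-bs (VE-PTPiKO minus Control, log2; interval -2.04 to 1.38), -0.54 ± 0.77 for Hbb-bt, -0.37 ± 0.61 for Hba-a1 and -0.44 ± 0.44 for Alas2. With intervals this wide, neither equal responses nor a difference of several-fold was shown for the globins. The platelet chemokines had larger differences: -1.50 ± 0.51 for Pf4 (interval -2.59 to -0.40, unadjusted p = 0.0110) and -1.44 ± 0.56 for Ppbp (interval -2.65 to -0.23, unadjusted p = 0.0234). Both had an adjusted p of 0.999 over all genes and are not called. Both stayed negative in all 23 alternatives tried, with Pf4 between -1.77 and -1.06 and Ppbp between -1.78 and -0.96. Those alternatives reuse the same libraries, so their shared sign is no independent evidence of a difference. Itga2b differed by -0.02 ± 0.26. No gene of 16339 was called in this test (0.0%), and edgeR and DESeq2 called 0 each. By limma, 432 genes (2.64%) had an unadjusted p under 0.05.

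Between the genotypes within 1 operation, no member and no gene was called by limma (0.0% in sham and 0.0% after IR). In sham, 267 genes had an unadjusted p under 0.05, edgeR called 0 and DESeq2 1 gene; after IR the counts were 709, 0 and 1. Pf4 was higher in VE-PTPiKO sham than in Control sham by 0.88 ± 0.36 on the log2 scale (unadjusted p = 0.0282, adjusted p = 1.0). After IR its difference was -0.61 ± 0.36 (adjusted p = 1.0). Ppbp after IR was lower in VE-PTPiKO by a log2 difference of -0.96 ± 0.40 (unadjusted p = 0.0301, adjusted p = 1.0). For the red cell genes the differences after IR lay between -0.43 (Hbb-bs) and -0.33 (Alas2), and in sham between -0.10 (Hbb-bs) and 0.19 (Hbb-bt), and their signs turned under some of the alternatives. These comparisons share their libraries with the IR comparisons above.

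Ratios of 1 gene to another were taken within each library. Per 100 Hbb-bs reads there were 6.97 to 10.1 Hbb-bt reads in all 12 libraries. Hba-a1 gave 23.0 to 29.9 reads per 100 Hbb-bs reads in 9 libraries, sham and IR alike. In the 3 libraries highest in Malat1 it gave 30.8 to 37.1. Alas2 gave 3.66 to 6.67 reads per 100 Hbb-bs reads in the 9 and 7.23 to 9.30 in the 3. Each of the 3 was also the library with the lowest Hbb-bs of its group, although in VE-PTPiKO sham by a margin of 51.1 against 51.9 CPM. The part of RNA quality or of the Malat1 share in the red cell values was not tested. The 3 libraries were chosen after their values were known.

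**Figure D3:**
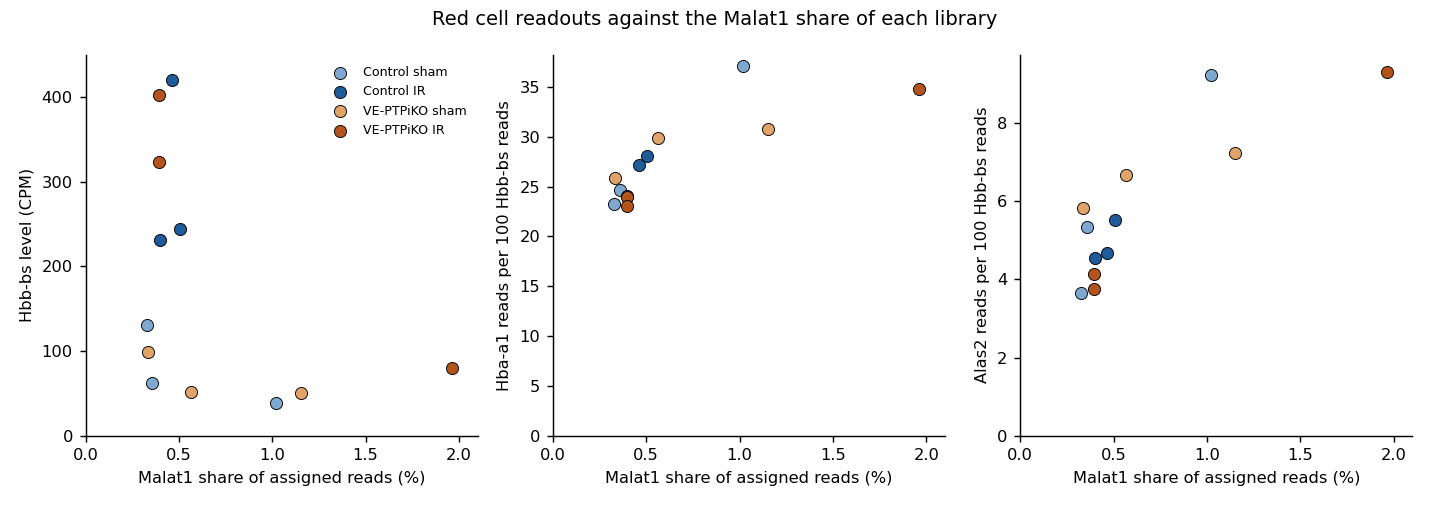
Each point is 1 of the 12 libraries, coloured by group, at its Malat1 share of assigned reads (horizontal axis, %). From left to right the vertical axes give the Hbb-bs level (CPM), Hba-a1 reads per 100 Hbb-bs reads and Alas2 reads per 100 Hbb-bs reads. The 3 libraries over 1% in Malat1 have the highest values in the middle and right plots.

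Platelet and red cell transcripts did not keep a fixed ratio. Pf4 and Ppbp together gave 0.407 to 0.887 reads per 100 haemoglobin reads in Control sham and 0.381 to 1.24 in Control IR. The range was 0.522 to 1.59 in VE-PTPiKO sham and 0.268 to 1.57 in VE-PTPiKO IR. Control IR replicate 2 had the most Hbb-bs of any library (420 CPM) and the least Pf4 and Ppbp of its group, with 0.381 platelet reads per 100 haemoglobin reads. Over the 12 libraries, as a description, Pearson's r of log2(CPM + 1) with Hbb-bs was 0.993 for Hbb-bt, 0.987 for Hba-a1 and 0.948 for Alas2. It was 0.681 for Pf4, 0.629 for Ppbp and 0.333 for Itga2b. With Pf4 it was 0.886 for Ppbp and 0.623 for Itga2b. These values share the difference between sham and IR, the libraries and their depth.

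Among 12590 other genes that averaged 1 CPM or more, those most like Hbb-bs over the 12 libraries were Nifk (r = 0.979), Vapa (0.974), Ptges3 (0.970), Ppp1cb (0.970), Dnaja2 (0.970) and Tspan8 (0.969). Their Control means differed less between sham and IR than that of Hbb-bs: Nifk went from 28.3 to 42.1 CPM, Tspan8 from 44.7 to 68.7, Vapa from 119 to 162 and Ppp1cb from 274 to 316. Most like Pf4 were Trim15 (r = 0.955), Mapk6 (0.948), Nup50 (0.942), Acbd3 (0.939), Mmp10 (0.939) and Ptk2b (0.938). Mmp10, a matrix metalloproteinase, had a mean of 0 CPM in both sham groups, 14.1 in Control IR and 7.77 in VE-PTPiKO IR.

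Other genes of red cells did not move as 1 group with the globins. Of 25 tested in Control, 4 rose and 3 fell, with a median log2 fold change of 0.22. Among those that rose were Fam46c (log2 0.93 ± 0.19 SE, adjusted p = 0.00850) and Car2, a carbonic anhydrase that kidney tubules also express (0.50 ± 0.13, 0.0337). Klf1, the erythroid transcription factor, fell, from 3.69 ± 1.41 to 1.22 ± 0.153 CPM (log2 -1.53 ± 0.31 SE, adjusted p = 0.00912). Epb41 (log2 -0.46, adjusted p = 0.0314) and Bnip3l (log2 -0.44, adjusted p = 0.0296) fell too. Fam46c, Klf1 and Bnip3l are named after their values were seen, because the counts rest on them. Leaving out 1 Control library at a time, Bnip3l lost its call in 5 of 6 fits (all but the one without sham replicate 2; adjusted p 0.0666 to 0.162). Epb41 (0.0572 to 0.157) and Car2 (0.0547 to 0.143) lost theirs without sham replicate 3 or any 1 IR replicate, and Fam46c without IR replicate 2 (0.0561).

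In VE-PTPiKO, 0 of 24 other red cell genes rose and 1 fell, Klf1 (log2 -1.33 ± 0.25 SE, adjusted p = 0.0287). Its levels were 3.55 ± 0.656 CPM in sham and 1.42 ± 0.106 in IR, so that Klf1 and the globins had opposite signs in both genotypes. The VE-PTPiKO call of Klf1 was lost without any 1 library other than IR replicate 3 (adjusted p 0.0693 to 0.142). Without IR replicate 3, Car2 (log2 0.84, adjusted p = 0.00878) and Epb41 (log2 -0.84, adjusted p = 0.00886) passed as well. Slc4a1 encodes the band 3 anion exchanger of red cells and of the kidney's intercalated cells. Its Control mean was 12.2 ± 3.80 CPM in sham and 16.6 ± 3.69 after IR (log2 0.43 ± 0.23 SE, adjusted p = 0.276). Of the 6 embryonic globin genes, 4 had 0 reads in every library and none reached the filter; they summed to at most 0.0617 CPM. None of the 8 haem synthesis enzymes other than Alas2 passed in either genotype (medians -0.17 and -0.07), Fech among them, which inserts iron to complete haem (log2 -0.34 ± 0.12 SE in Control, adjusted p = 0.101).

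Of 19 other platelet and megakaryocyte genes tested in Control, 2 rose, none fell, and the median log2 fold change was 0.38. They were Plek, the platelet and leukocyte protein pleckstrin (4.73 ± 1.03 to 9.26 ± 1.12 CPM, log2 0.95 ± 0.20 SE, adjusted p = 0.0109), and Selp. Selp encodes P-selectin, which platelets and endothelial cells both hold, and went from 0.238 ± 0.0614 to 1.74 ± 1.18 CPM (log2 2.33 ± 0.55 SE, adjusted p = 0.0203). The call of Plek was lost without Control IR replicate 2 (adjusted p = 0.0660), and that of Selp without IR replicate 1 (0.0743), IR replicate 2 (0.116) or sham replicate 3 (0.0760). In VE-PTPiKO 0 of 19 passed (median 0.40), with Selp at an adjusted p of 0.0618. Selp did pass there with no filter on low values (0.0462), with library weights (0.0145) and in 1 model of all 12 libraries (0.0210), and Plek with library weights (0.0132). Selp is named after its values were seen, as are Clec1b and Gp1ba. Itgb3, the beta chain that pairs with the Itga2b product, did not pass (log2 -0.26 ± 0.21 SE in Control, adjusted p = 0.523, and -0.67 ± 0.33 in VE-PTPiKO, adjusted p = 0.388). Clec1b (-0.28 ± 0.43, adjusted p = 0.760) and Gp1ba (-0.71 ± 0.50, adjusted p = 0.442), both platelet receptors, did not pass in Control. The 9 platelet markers together, Pf4, Ppbp and Itga2b included, summed to 13.9 to 18.9 CPM in the Control sham libraries and 17.1 to 18.8 after IR, ranges that overlap. In VE-PTPiKO the sums were 14.4 to 22.1 CPM in sham and 14.3 to 21.7 in IR.

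Macrophages can express Pf4, and mast cells genes of the same lineage as Itga2b. Of 7 tested macrophage and mast cell markers 0 passed in either genotype, with median log2 fold changes of 0.05 in Control and -0.09 in VE-PTPiKO. The 9 markers summed to 110 to 130 CPM in sham and 113 to 132 CPM after IR in Control, and to 123 to 132 and 109 to 142 CPM in VE-PTPiKO; the mast cell markers Cpa3 and Cma1 were at or near 0. Their part in the Pf4 values was not tested.

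White blood cell genes give a further view of blood in the tissue. Of 11 neutrophil genes tested in Control, 2 rose: Lcn2, which injured tubules also make (5.49 ± 1.51 to 48.2 ± 32.3 CPM, log2 2.93 ± 0.36 SE, adjusted p = 0.000459), and Il1r2 (log2 1.48 ± 0.34 SE, adjusted p = 0.0161), the latter not without Control IR replicate 2 (0.0975). S100a8 and S100a9, which neutrophils hold in abundance, stood at log2 1.19 ± 0.45 and 1.07 ± 0.46 SE and did not pass (adjusted p = 0.126 and 0.187). In VE-PTPiKO 1 of 12 rose, Lcn2 (log2 1.63 ± 0.28 SE, adjusted p = 0.0167), a call lost without sham replicate 2 (0.0723) or 3 (0.0771). Without VE-PTPiKO IR replicate 3, S100a9 (log2 1.40, adjusted p = 0.00967), S100a8 (1.19, 0.0342) and Il1r2 (1.21, 0.0263) passed. Of 8 monocyte genes 1 rose in each genotype, Plac8 (log2 1.20 ± 0.15 SE in Control, adjusted p = 0.000553, and 1.09 ± 0.20 in VE-PTPiKO, adjusted p = 0.0213). The VE-PTPiKO call of Plac8 was lost when sham replicate 2, sham replicate 3, IR replicate 1 or IR replicate 2 was left out (adjusted p 0.0829 to 0.128). No B cell gene passed (0 of 5 in Control and 0 of 6 in VE-PTPiKO), and no T or NK cell gene (0 of 9 in both). The B cell genes summed to at most 1.36 CPM in any library.

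Of 12 endothelial genes, 1 rose in Control, Cdh5 (log2 0.58 ± 0.11 SE, adjusted p = 0.00562; 0.0534 without IR replicate 2), and 0 in VE-PTPiKO, with medians of -0.14 and -0.13. Cdh5 is named after its values were seen. None of 9 genes that respond to or clear free haem and haemoglobin passed in either genotype (medians 0.08 and -0.14). Hmox1, which breaks down haem, ran from 99.9 to 1070 CPM over the Control sham libraries and from 337 to 889 after IR. Its log2 fold change was 0.89 ± 0.68 SE (adjusted p = 0.493), and without Control sham replicate 3 it was 1.86 (adjusted p = 0.0277). In VE-PTPiKO it was 0.59 ± 0.27 SE (adjusted p = 0.358). Of 4 markers of adipose tissue, 0 passed in either genotype, and 0 of the 9 kidney markers did.

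**Figure D4:**
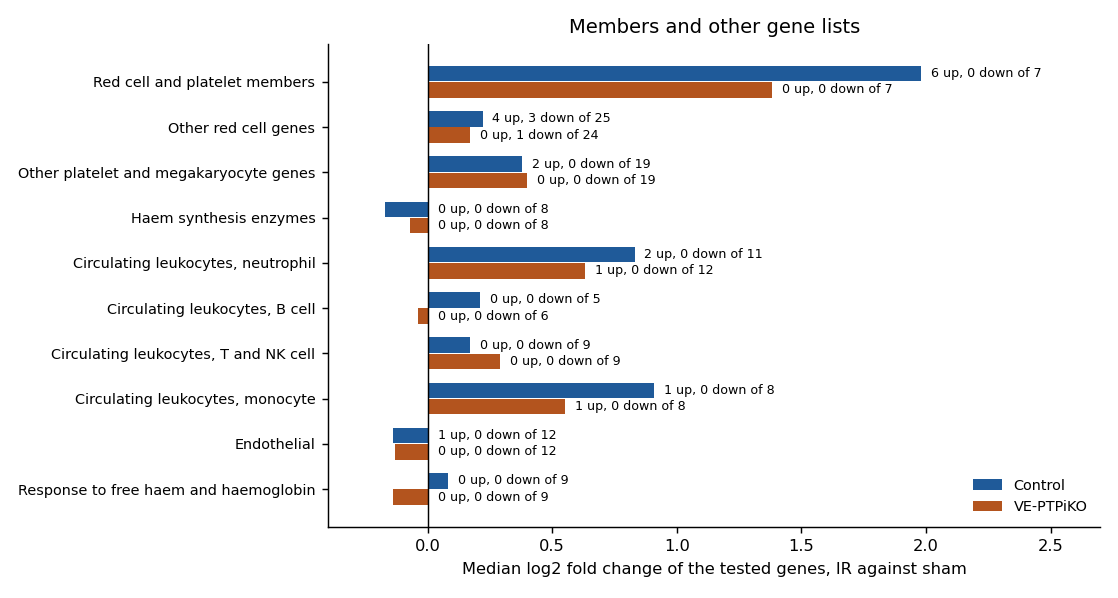
Median log2 fold change of IR against sham over the tested genes of each list (bars from 0; blue Control, orange VE-PTPiKO), with the number of genes called higher and lower at an adjusted p under 0.05. The members' medians are 1.98 and 1.38, and those of other red cell genes 0.22 and 0.17.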

How the data were processed

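Per the labels' protocols, RNA of whole kidneys was taken up in Trizol and TruSeq RNA libraries were made. The submitters' processing notes name FastQC, STAR, HTSeq, DESeq2 and mm10, with no versions. Each deposited table (1 per genotype) holds per-library normalized signal: counts that the authors scaled with a size factor for each library, a reading taken from the values. Per the file headers, the log2 fold changes, their errors and the adjusted p-values are the authors' own; the Wald score the authors deposited was not used. Whole reads were recovered for 100.0% of values (tolerance 0.02) and gave CPM. Of 23493 lines, 182 identifiers were repeated and 23286 genes were kept.

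IR was tested against sham within each table by limma 3.58.1 (R 4.3.3) on log2(value + 1) with a mean-variance trend, keeping genes that average 1 or more, with Benjamini-Hochberg adjusted p under 0.05. Contrasts across tables used the recovered reads of 12 libraries, scaled by the median of ratios over 14828 genes. Alternatives used edgeR 4.0.16, DESeq2 1.42.0 and the settings given in the closing section. The fits were also run on simulated counts, with the same spread setting for every gene and no outlying library. Those runs therefore do not cover genes with an outlying library, such as Hbb-bs in VE-PTPiKO IR. Lengths are GENCODE M21 exon unions. Every member is named, and from each list up to 4 genes of highest mean CPM; all other context genes were named after their values were seen. Members and lists were chosen with earlier results of these data known. The 2 single-cell samples were not analysed here. Some genes of the red cell list are counted but not reported here by name.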

Additional observations from a re-analysis of the deposited data

How the results depend on the processing

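The alternatives were pseudocounts of 0.1 and 5, no filter or a mean of at least 5, TMM, edgeR, DESeq2, library weights, the replicate number as a block, 1 model of all 12 libraries, the omission of the 3 libraries highest in Malat1 and of each library in turn. In Control, 6 members were called in all of them except without IR replicate 3, which left 5 (range 5 to 6 over single omissions). Calls over all genes there ran from 862 to 2010 over single omissions, against 1870 with all libraries. In VE-PTPiKO, where 0 members and 445 genes were called, DESeq2 called 2 members and 1013 genes, library weights 5 (Pf4 among them) and 3879, 1 model of 12 libraries 2 and 1019, and omission of the 3 libraries 4 and 853. Single omissions gave 0 to 4 members and 126 to 1925 genes. The cause was not tested. Correlations between same-numbered libraries, taken on deviations from the group means, ran from -0.253 to 0.301. Libraries of different numbers were not compared, so whether the numbers pair the samples cannot be told. With the replicate block Hbb-bs (adjusted p = 0.0434), Hba-a1 (0.0229) and Alas2 (0.0313) passed in VE-PTPiKO, and so did Selp (0.0454). Over all genes, single omissions gave 0 to 1 calls for the interaction, 0 to 1 for genotype in sham and 0 after IR; DESeq2 called 1 gene in sham and 1 after IR, and omission of the 3 libraries 1 in sham.

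Small genotype differences changed sign, none with an adjusted p under 0.05, and the cause was not tested. For the interaction, Hbb-bs was 0.06 with DESeq2, 0.08 with edgeR, 0.47 with library weights and 0.66 without the 3 libraries. Hbb-bt was 0.25 and Hba-a1 0.14 with weights, and 0.26 and 0.27 without the 3 libraries. Itga2b was 0.00 with TMM and 0.01 with edgeR. In sham, weights gave -0.14 for Hbb-bt and -0.02 for Alas2, and omission of the 3 libraries 0.00 for Itga2b. After IR, weights gave 0.06 for Hbb-bs and 0.11 for Hbb-bt, and omission of the 3 libraries 0.32 for Hbb-bs, 0.32 for Hbb-bt, 0.15 for Hba-a1 and 0.00 for Alas2. Over single omissions the interaction ran from -0.81 to 0.41 for Hbb-bs, -1.0 to 0.13 for Hbb-bt, -0.72 to 0.18 for Hba-a1 and -0.12 to 0.13 for Itga2b. The sham difference ran from -0.52 to 0.39 for Hbb-bs, -0.21 to 0.65 for Hbb-bt, -0.26 to 0.32 for Hba-a1, -0.10 to 0.29 for Alas2 and -0.16 to 0.09 for Itga2b. The difference after IR ran from -0.88 to 0.31 for Hbb-bs, -0.77 to 0.32 for Hbb-bt, -0.75 to 0.15 for Hba-a1 and -0.11 to 0.02 for Itga2b. Of the context genes, Apex2 in Control ran from -0.02 to 0.19 and Slc4a1 in VE-PTPiKO from -0.12 to 0.33. Pf4 and Ppbp rest on at most 40 reads a library, and Hba-a2 on at most 2, which limits their precision.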
